A study of Homo sapiens with 8 samples.

Results

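Homeobox, forkhead, SOX, T-box and GATA factors, the developmental transcription factors, were followed in Panc-1 cells after depletion of PHF13 and treatment with TGFβ. The members were the genes whose symbols name a HOX, FOX, SOX, TBX, GATA, SIX4, SIX5, PAX, MEIS, PBX, LHX, MSX, DLX, PITX, HNF or ONECUT gene or a close relative, and 110 of the 13307 genes with normalized counts matched. In the annotation, 170 protein-coding genes match the same names, and 60 of them are not among the 13307 genes. Panc-1 is a human line from a carcinoma of the pancreatic duct, and PHF13 is a PHD finger protein that reads methylated lysine 4 of histone H3.

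All cells were transfected with siRNA, either a control (siControl) or siRNAs against *PHF13* (siPHF13). From the next day, siControl_TGFβ and siPHF13_TGFβ cells received 10 ng/ml TGFβ for 48 h, and siControl and siPHF13 cells received none. Each group had 2 poly(A) RNA libraries, and every group is the same cell line. The labels do not say whether the libraries came from separate cultures, so the p-values measure the spread between these libraries, which may be technical.

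Homeobox factors bind DNA through a helix-turn-helix domain, and the HOX genes among them lie in clusters whose gene order follows their expression along the body axis. Forkhead factors carry a winged helix, SOX factors bend DNA through an HMG box, and T-box and GATA factors bind through a T-box and zinc fingers. FOXA, GATA, SOX9, HNF, ONECUT and PAX factors build and maintain the pancreatic epithelium. TGFβ acts through SMAD proteins, which bind short CAGAC elements together with other factors, and it drives epithelial cells towards epithelial-to-mesenchymal transition (EMT). Forkhead proteins such as FOXH1 and the FOXO factors are among the partners of SMAD proteins.

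The 8 libraries held 39196214 to 46700806 reads on genes. *PHF13* had 1804 and 1662 normalized counts in siControl, 524 and 558 in siPHF13, 1586 and 1709 in siControl_TGFβ, and 513 and 529 in siPHF13_TGFβ. The cells had the markers of a ductal line: 7 of 7 duct and epithelial markers and 5 of 6 mesenchymal markers were in the table, and 0 of 5 endocrine and 0 of 3 endothelial markers were. Of 7 acinar markers 1 was listed (*CEL*, 6.47 to 25.2 normalized counts), and of 4 leukocyte markers 1 was (*CD14*, 23.7 to 78.7). Replicate 1 lay above replicate 2 for 55 of the 110 members in siControl, 34 in siPHF13, 76 in siControl_TGFβ and 80 in siPHF13_TGFβ. The median log2 distance between the replicates over the members was 0.19 in siControl_TGFβ, 0.20 in siPHF13_TGFβ and -0.12 in siPHF13, against 0.00, 0.01 and 0.00 over all genes. The transcripts of the members had a median GC content of 56.1%, and those of all annotated genes with counts 48.9%. The part of base composition in these distances was not tested.

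Over the 8 libraries, 36 members had a mean of 1000 or more normalized counts, 40 lay from 100 to under 1000, 15 from 30 to under 100, and 19 under 30. Per kilobase of transcript, the highest levels in siControl cells were those of *HOXB6* (1878 normalized counts per kb), *HOXB3* (1743), *PBX2* (1257), *HOXB2* (1226) and *SOX9* (1183). *HOXB7*, *HOXC10*, *GATA5*, *HOXB4* and *FOXK2* followed with 1170.4, 1075, 1074, 1012 and 1008. Thus HOXB genes, a HOX partner, a ductal SOX factor and an endodermal GATA factor stood among the most abundant members of this line.

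The upstream sequences of members that rose with TGFβ are shown because SMAD proteins are known to bind CAGAC. The RefSeq promoter table (GRCh38.p14) held 66 of the 110 members, and 250 bases before the annotated start are printed 5′ to 3′ along the gene. Capitals mark CAGAC on either strand (CAGAC or GTCTG as printed).
*PITX3*, chr10:102241513-102241762, minus strand: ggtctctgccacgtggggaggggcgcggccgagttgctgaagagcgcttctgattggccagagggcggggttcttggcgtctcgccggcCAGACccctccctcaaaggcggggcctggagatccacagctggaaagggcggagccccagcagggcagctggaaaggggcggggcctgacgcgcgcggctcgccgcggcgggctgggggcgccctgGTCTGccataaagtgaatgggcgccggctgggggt
*DLX2*, chr2:172102901-172103150, minus strand: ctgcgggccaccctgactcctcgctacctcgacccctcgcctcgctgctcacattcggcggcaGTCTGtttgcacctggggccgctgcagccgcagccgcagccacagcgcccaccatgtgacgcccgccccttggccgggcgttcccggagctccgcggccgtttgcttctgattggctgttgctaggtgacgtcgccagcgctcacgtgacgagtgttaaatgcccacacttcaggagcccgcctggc
*FOXN3*, chr14:89619166-89619415, minus strand: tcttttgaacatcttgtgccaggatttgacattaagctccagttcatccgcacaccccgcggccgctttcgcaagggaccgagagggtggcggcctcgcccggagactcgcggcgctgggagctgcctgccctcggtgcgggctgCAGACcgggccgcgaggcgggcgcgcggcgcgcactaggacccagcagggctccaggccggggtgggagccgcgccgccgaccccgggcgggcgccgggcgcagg
*SOX4*, chr6:21593501-21593750, plus strand: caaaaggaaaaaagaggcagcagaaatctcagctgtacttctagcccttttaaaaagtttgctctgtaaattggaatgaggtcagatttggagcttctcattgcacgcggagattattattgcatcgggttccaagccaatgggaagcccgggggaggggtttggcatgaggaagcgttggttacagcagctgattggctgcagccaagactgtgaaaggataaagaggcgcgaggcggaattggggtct
The *PITX3* window held 2 matches, *DLX2* and *FOXN3* 1 each, and *SOX4* 0. CAGAC was present in 37.8% of 27305 promoters of this length and in 21 of the 66 members (31.8%). The AP-1 motif TGANTCA, searched on both strands and without overlap with CAGAC, had 0 matches in each of the 4 windows and occurred in 6.6% of all promoters and 5 of the 66 members. The windows differed in composition, with 23 CG dinucleotides in *PITX3*, 25 in *DLX2*, 33 in *FOXN3* and 8 in *SOX4*. A match is a description of these letters and no evidence of binding.

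Of the members called after PHF13 depletion without TGFβ, most were lower. A member was called when its Benjamini-Hochberg adjusted p from limma was under 0.05 and its log2 difference over 0.58 in size. In siPHF13 cells 16 of 110 members (14.5%) fell and 3 (2.73%) rose, where 10.4% of all genes fell and 7.95% rose. Together 19 members (17.3%) were called against 18.4% of all genes, a share near the background, with 16 of the 19 lower where 1390 of the 2448 called genes were lower. The excess of falls over the share of all genes depended on single libraries. It was smaller without siControl replicate 1 and without siControl replicate 2. Without siPHF13 replicate 1 the members fell at about the share of all genes. The same held with edgeR and DESeq2, run without that library. Of the 16 falls, 2 (*FOXA1* and *PITX3*) had a depleted mean below the lowest gene mean of the table (9.82), which left 14. The median log2 difference of the members was -0.17 and that of all genes 0.00, and 68 members lay below 0 and 42 above. These are poly(A) RNA levels of whole cultures, in which fewer cells that express a gene and less RNA per cell cannot be told apart. Of the 5 mesenchymal markers, 3 (*CDH2*, *FN1* and *COL1A1*) fell with depletion as well, while the summed level of all 5, most of it *VIM*, was 167997 to 172808 in siPHF13 and 167524 to 169768 in siControl. Of the 7 duct and epithelial markers *CDH1* fell (-1.44) and *EPCAM* rose (0.78), and their summed level was 172826 to 195735 in siPHF13 and 194637 to 205182 in siControl. The part of these markers in the members' differences was not tested.

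Among the SOX factors, which include regulators of duct cells and of the neural crest, 3 of 11 fell without TGFβ. Of all genes 10.4% fell there. With TGFβ 2 of the 11 fell, where 11.7% of all genes did. *SOX9*, a factor of pancreatic progenitors and duct cells, had 4696 and 4609 normalized counts in siControl and 2551 and 2738 in siPHF13. Both depleted libraries lay below both control libraries, at 56.9% of the control mean. The log2 difference was -0.82 (SE 0.09, adjusted p = 7.19e-06, limma).

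*SOX8*, a relative of *SOX9* in the same SOX subgroup, had 140.4 and 117 normalized counts in siControl and 53.7 and 43.4 in siPHF13. Its depleted libraries stood at 37.7% of the control mean without overlap, a log2 difference of -1.39 (SE 0.29, adjusted p = 0.00145, limma). *SOX18*, a factor of vascular development, was 116 ± 0.942 (SD, n = 2) in siControl and 57.9 ± 25.6 in siPHF13, a log2 difference of -1.06. Without siPHF13 replicate 1 its difference was -0.60 (adjusted p = 0.18, limma), and without siControl replicate 1 or 2 the adjusted p was 0.0746 or 0.0699.

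The GATA factors, zinc finger regulators of endoderm and blood, had log2 differences below 0 in all 5 members (-0.95 to -0.17). Of all 110 members, 68 lay below 0. *GATA3*, at -0.17 (adjusted p = 0.471, limma), had overlapping libraries, with 319.6 and 321 normalized counts in siControl and 249 and 328 in siPHF13. *GATA6*, needed for pancreas formation, had 235 and 244 normalized counts in siControl and 115 and 133 in siPHF13. It was the GATA member past both thresholds (log2 difference -0.95, SE 0.18, adjusted p = 0.000746, limma). *GATA5* (-0.56), *GATA4* (-0.48) and *GATA2* (-0.36) had an adjusted p under 0.05 with differences under the fold threshold. With TGFβ, all 5 again lay below 0, as did 68 of all 110 members. *GATA6* was called at -1.07, and *GATA4* (-0.54) and *GATA5* (-0.48) lay under the fold threshold.

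Homeobox factors outside the HOX clusters gave further falls. *PBX4*, a cofactor that binds DNA with HOX proteins, had 287 and 329.8 normalized counts in siControl and 133 and 105 in siPHF13. This was 38.5% of the control mean with no overlap, and the log2 difference was -1.38 (SE 0.18, adjusted p = 3.41e-05, limma). Its relative *PBX2* lay at 4045 and 4074 in siControl and 5836 and 6127 in siPHF13, a log2 difference of 0.56 that stayed under the fold threshold. The members of one cofactor family thus differed in sign.

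*DLX2*, a homeobox factor of forebrain and branchial arches, had 288 and 211 normalized counts in siControl and 131 and 116 in siPHF13 (log2 difference -0.99, SE 0.20, adjusted p = 0.00113, limma). *DLX1*, its neighbour 9.76 kb away on chromosome 2 in GRCh37, had 257 and 258 in siControl and 169 and 152 in siPHF13 (log2 difference -0.68). Both genes of this pair fell, and the other 5 MSX and DLX members also lay below 0 without being called, where 68 of all 110 members lay below 0.

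*PAX9*, a paired box factor of pharyngeal pouches and teeth, had 215 and 182 normalized counts in siControl and 86.5 and 92.7 in siPHF13 (log2 difference -1.14, SE 0.20, adjusted p = 0.000417, limma). *PAX2*, a paired box factor of the kidney, had 2424 and 2207 in siControl and 891 and 1263 in siPHF13 (log2 difference -1.12). They stood at 45.1% and 46.5% of the control mean. *PITX3*, a homeobox factor of lens and midbrain, was near the floor of the table with 10.4 and 12.6 normalized counts in siControl and 4.97 and 3.95 in siPHF13. Its log2 difference of -1.20 (adjusted p = 0.0445) was -0.80 with a pseudocount of 5 (adjusted p = 0.0909), and each library outside siPHF13_TGFβ replicate 2 cost it the call when left out (-1.33 to -1.06). The adjusted p was 0.178 with edgeR and 0.0504 with a block for the replicate number.

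Forkhead factors moved in both directions. *FOXP4*, a repressor of lung and gut development, had 549 and 586 normalized counts in siControl and 1001 and 1092 in siPHF13, 184% of the control mean (log2 difference 0.88, SE 0.14, adjusted p = 0.000181, limma). *FOXD1*, a factor of kidney stroma, rose from 1309.8 and 1301 to 2108 and 1921 (log2 difference 0.62, SE 0.10, adjusted p = 0.00016). Neither gene's groups overlapped. The *FOXD1* difference lay just above the fold threshold and was 0.57 with GC content and transcript length corrected and 0.56 without siPHF13 replicate 1.

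The FOXO factors, targets of insulin and AKT signalling that restrain growth, were divided. *FOXO1* had 227 and 255 normalized counts in siControl and 90.5 and 173 in siPHF13 (log2 difference -0.94, SE 0.26, adjusted p = 0.0094, limma). *FOXO3* had 5301 and 5519 in siControl and 3743 and 3887 in siPHF13 (log2 difference -0.50, adjusted p = 1.98e-05, under the fold threshold). *FOXO4* rose from 19 and 33.3 to 52.7 and 64.1 (log2 difference 1.18, SE 0.38, adjusted p = 0.0219). The fall of *FOXO1* was carried by the lower depleted library and was -0.48 without siPHF13 replicate 1 (adjusted p = 0.139) and -0.85 without siControl replicate 2 (adjusted p = 0.068). *FOXO4* had an adjusted p of 0.0564 with edgeR and a difference of 0.78 without siControl replicate 1 (adjusted p = 0.189).

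*FOXA1*, a pioneer factor of endodermal organs, was near the detection limit. It had 24.7 and 23.4 normalized counts in siControl, 0 and 9.86 in siPHF13, 25.9 and 22.6 in siControl_TGFβ, and 1.08 and 0 in siPHF13_TGFβ. All 4 depleted libraries lay below all 4 control libraries. Because its means in siPHF13 (4.93) and siPHF13_TGFβ (0.54) lay below the lowest gene mean of the table, it entered the table through its control groups and had to differ. The fitted log2 difference of -2.93 without TGFβ depends on the pseudocount and was -1.20 without siPHF13 replicate 1 (adjusted p = 0.308), and the adjusted p was 0.136 or 0.127 without siControl replicate 1 or 2. With TGFβ there were 46 reads in siControl_TGFβ and 1 in siPHF13_TGFβ, a ratio of 47.6 with a 95% Clopper-Pearson interval of 8.13 to 1920.0 that covers counting error only. *FOXA2*, its more abundant paralog, had 1781 and 1624 in siControl and 1305 and 1446 in siPHF13, a log2 difference of -0.31.

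The 27 HOX members did not all move together, and the medians of their clusters differed in sign. A difference between the clusters was not tested, and the HOXD median rests on 2 members. Without TGFβ 4 of the 27 (14.8%) fell, where 10.4% of all genes did, and 0 rose, and their median log2 difference was -0.17. Of the 4, *HOXA2* (-0.77) and *HOXA13* (-1.02) were not called by edgeR, in a fit without siPHF13 replicate 1. With TGFβ 3 of the 27 (11.1%) fell, where 11.7% of all genes did, and 0 rose. By cluster, 6 of 7 HOXA members lay below 0 (median -0.72) and 7 of 9 HOXB members above 0 (median 0.15). The median of all genes was 0.00. The HOXC and HOXD medians were -0.29 and 0.22. With TGFβ the medians were -0.48 for HOXA, 0.27 for HOXB, 0.01 for HOXC and 0.18 for HOXD. *HOXB13*, which lies 98.4 kb from *HOXB9* at the far end of its cluster on chromosome 17 in GRCh37 (46802125-46806112), had 533 and 602 normalized counts in siControl and 229.8 and 220.0 in siPHF13. The log2 difference was -1.33 (SE 0.15, adjusted p = 7.72e-06, limma), with no overlap. The other 8 HOXB members had log2 differences from -0.13 to 0.38, and *HOXB2*, *HOXB3*, *HOXB5* and *HOXB7* among them had small positive differences (0.38, 0.29, 0.30 and 0.30) with an adjusted p under 0.05 and under the fold threshold. Position in the cluster and expression in different cells of the culture cannot be told apart in these values.

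In the HOXA cluster, *HOXA3* fell from 776 and 699 normalized counts to 407 and 399 (log2 difference -0.87, SE 0.15, adjusted p = 0.00026, limma). *HOXA2* fell from 254 and 204 to 141 and 134 (log2 difference -0.72, SE 0.22, adjusted p = 0.0161; -0.56 without siControl replicate 1). *HOXA13* had 26.6 and 61.3 in siControl and 4.97 and 21.7 in siPHF13, and its difference of -1.83 was -0.87 without siPHF13 replicate 1 (adjusted p = 0.331) and -1.24 without siControl replicate 2 (adjusted p = 0.29). In the HOXC and HOXD clusters none of 9 and 2 members passed both thresholds without TGFβ. Reads of a HOX gene and of a gene overlapping it cannot be told apart without a stated strand setting, and over all families 63 of 110 members overlap a gene on the opposite strand and 35 one on the same strand.

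**Figure D1:**
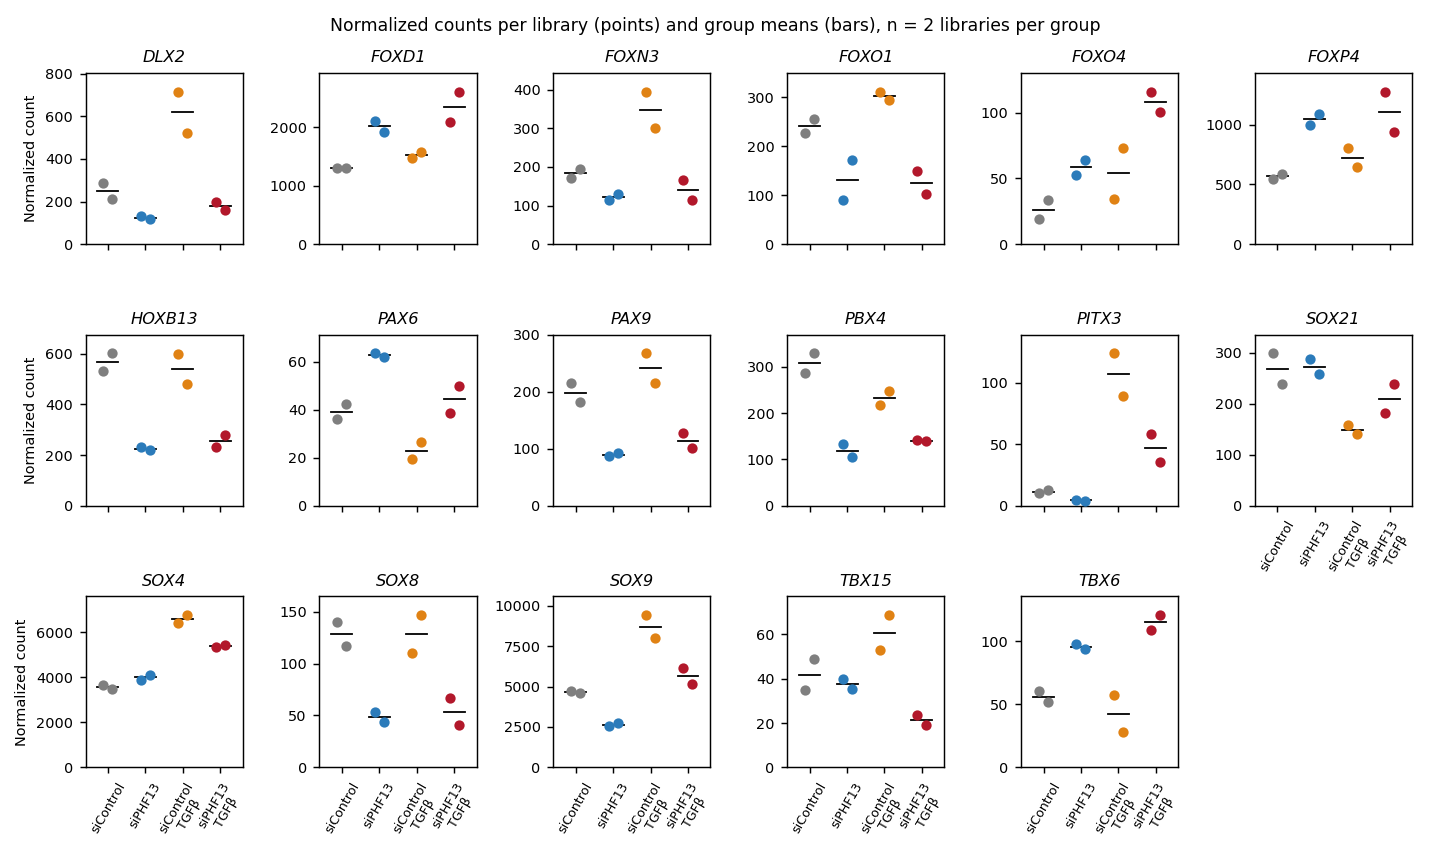
Normalized counts of 17 members in every library (points) with the group mean (bar), 2 libraries per group, each panel on its own linear axis from 0. *SOX8*, *HOXB13*, *PAX9* and *PBX4* were lower in both depleted groups, *SOX9* and *PITX3* were in addition higher with TGFβ in both siRNA backgrounds, and *TBX6* and *FOXO4* were highest in siPHF13_TGFβ.

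TGFβ raised few of these factors in control cells. In siControl_TGFβ against siControl 8 of 110 members (7.27%) rose and 1 (0.909%) fell, or 8.18% called, where 3.27% of all genes rose, 1.52% fell and 4.79% were called. The members' median log2 difference was 0.01 and that of all genes -0.01. The members that rose were *FOXS1*, *PITX3*, *DLX2*, *FOXN3*, *SOX9*, *SOX4*, *DLX1* and *FOXC2*. Of these 8, *FOXS1* had an untreated mean below the lowest gene mean of the table, which left 7. None of the 27 HOX members was called. *HOXC13*, the HOX member with an adjusted p under 0.05, lay under the fold threshold at -0.56 (adjusted p = 0.000848, limma) and was called lower with GC content and transcript length corrected and without replicate 1 of siControl or of siControl_TGFβ. Over all members 33 of 110 had an unadjusted p under 0.05 and 15 an adjusted p under 0.05 (limma). Without siControl replicate 2, or without siControl_TGFβ replicate 1, 5 members rose in place of 8: in both cases *DLX1* (0.63 and 0.56), *FOXC2* (0.51 and 0.48) and *FOXS1* (3.77 and 3.55) lost the call, and in the second *FOXN3* lost it (0.72) and *FOXO4* gained it. The summed level of the 7 duct and epithelial markers was 194637 to 205182 in siControl and 122531 to 128043 in siControl_TGFβ, that of the 5 mesenchymal markers 167524 to 169768 and 215188 to 223768, and their part in these results was not tested.

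The largest rise among members with a mean over 30 normalized counts was that of *PITX3*. It had 124 and 89.5 normalized counts in siControl_TGFβ against 10.4 and 12.6 in siControl, or 926% of the untreated mean, with no overlap. The log2 difference was 3.09 (SE 0.46, adjusted p = 0.000384, limma). Of the 4 windows printed above, its own held the most CAGAC matches (2), while that of *SOX4*, which also rose, held 0. A link between matches and the size of a rise was not tested.

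*DLX2* rose from 288 and 211 to 716 and 520.5 normalized counts (log2 difference 1.30, SE 0.20, adjusted p = 0.000515, limma), and *DLX1* from 257 and 258 to 418 and 381 (0.63, adjusted p = 0.0146; 0.0971 without siControl replicate 1). The neighbours thus both rose, *DLX2* by the larger estimate. *FOXN3*, a forkhead repressor linked to cell cycle checkpoints, rose from 171 and 195 to 395 and 301 (log2 difference 0.92, SE 0.21, adjusted p = 0.00875), which was 0.82 without siControl replicate 1 (adjusted p = 0.0945). *FOXC2*, a mesenchyme factor linked to EMT, rose from 1005 and 846 to 1598 and 1285 (log2 difference 0.63, adjusted p = 0.00575). Its paralog *FOXC1* had a log2 difference of 0.16 and was not called.

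*SOX9* rose from 4696 and 4609 to 9444 and 7979 normalized counts (log2 difference 0.90, SE 0.09, adjusted p = 1.53e-05, limma). *SOX4*, an EMT-linked SOX factor, rose from 3665 and 3503 to 6416 and 6791 (log2 difference 0.88, SE 0.06, adjusted p = 7.26e-07). Both were among the abundant members and their groups did not overlap. *SOX21*, a neural SOX factor, fell from 299.7 and 239 to 158 and 139.9 (log2 difference -0.84, SE 0.18, adjusted p = 0.00625), and lost the call without siControl replicate 1 (-0.68) or siControl_TGFβ replicate 2 (-0.75).

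*FOXS1*, a forkhead factor of pericytes and sensory neurons, had 0.948 and 0.901 normalized counts in siControl and 30.2 and 21.6 in siControl_TGFβ, or 2 against 49 reads. The ratio was 27.9 with a 95% Clopper-Pearson interval of 7.33 to 237 for counting error alone. It had 0.995 and 13.8 in siPHF13 and 27 and 42.3 in siPHF13_TGFβ. Because its mean in untreated control cells lay below the lowest gene mean of the table (9.82), it entered the table through its higher groups and had to differ.

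In PHF13-depleted cells TGFβ raised 2 of 110 members (1.82%), where 1.13% of all genes rose, 0.218% fell and 1.35% were called. *PITX3* rose from 4.97 and 3.95 normalized counts in siPHF13 to 58.3 and 35.6 in siPHF13_TGFβ (log2 difference 3.10, SE 0.46, adjusted p = 0.00131, limma). Its siPHF13 mean (4.46) lay below the lowest gene mean of the table, so *PITX3* entered through its higher groups and had to differ, which left 1 rise. *SOX9* rose from 2551 and 2738 to 6145 and 5186 (log2 difference 1.09, SE 0.09, adjusted p = 8.41e-06). The fold of both was close to that in control cells, from a lower starting level: the differences between the responses were 0.01 (SE 0.65) and 0.19 (SE 0.13), with adjusted p of 0.998 and 0.705. At 122% of the siControl mean, *SOX9* in siPHF13_TGFβ stood above untreated control cells and below siControl_TGFβ (9444 and 7979).

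The interaction, the response in siPHF13 cells minus that in siControl cells, was called for 0 of 110 members and for 0.308% of all genes (0.0601% higher and 0.248% lower). The members' median interaction was 0.01, with 58 above 0 and 52 below. In limma 8 members had an unadjusted p under 0.05, in edgeR 9 did and 0 were called, and with DESeq2 0 were called past both thresholds. The lowest p was that of *SOX4*, which had 3886 and 4121 normalized counts in siPHF13 and 5361 and 5451 in siPHF13_TGFβ. Its response was 0.88 in siControl cells and 0.43 in siPHF13 cells, a difference of -0.45 (SE 0.09, unadjusted p = 0.000232, adjusted p = 0.0528, limma). Over the alternatives that adjusted p ran from 0.0132 to 0.462. *DLX2* (1.30 and 0.52, adjusted p of the difference 0.344), *FOXN3* (0.92 and 0.19, 0.433) and *TBX15* (0.54 and -0.79, 0.385) had wider differences with larger errors, so that a difference in their response was not detectable with 2 libraries per group. Of the 8 members, *SOX6* (1.52), *LHX6* (1.38) and *PBX4* (0.65) had an interaction above 0, with adjusted p of 0.385, 0.476 and 0.401.

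In TGFβ-treated cells depletion lowered 22 of 110 members (20%) and raised 5 (4.55%), or 24.5% called, where 11.7% of all genes fell, 8.81% rose and 20.5% were called. Of the 22, *FOXA1* and *FOXD3* had a depleted mean below the lowest gene mean of the table, which left 20. The excess of falls over the share of all genes depended on single libraries. It was smaller without siControl_TGFβ replicate 1 and without siPHF13_TGFβ replicate 2. The median log2 difference was -0.12 over the members and 0.00 over all genes, and again 68 members lay below 0 and 42 above. Without siControl_TGFβ replicate 1, 14 members fell and 3 rose: *SOX9* (-0.50), *PITX3* (-0.96), *FOXC1* (-0.34), *FOXD3* (-1.53), *HOXA2* (-0.31), *HOXC8* (-0.54), *MEIS3* (-0.50), *FOXD1* (0.57), *FOXO4* (0.55) and *PAX6* (0.70) were among those that lost the call, and *PBX2* gained it. Without siPHF13_TGFβ replicate 2, *FOXD1* (0.46), *FOXO4* (1.18) and *PAX6* (0.74) lost the call and *PBX2* gained it, which left 3 rises, and *DLX1* (-0.57) was among the falls that lost it. The summed level of the 5 mesenchymal markers was 215188 to 223768 in siControl_TGFβ and 186542 to 201786 in siPHF13_TGFβ, and that of the 7 epithelial markers 122531 to 128043 and 139604 to 151004. Their part in the members' differences was not tested.

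Of the 19 members called after depletion without TGFβ and the 27 called with it, 16 were called in both and in the same direction (84.2% of the first and 59.3% of the second), and 0 in opposite directions. They were *SOX8*, *SOX9*, *FOXA1*, *FOXO1*, *GATA6*, *DLX1*, *DLX2*, *HOXA2*, *HOXB13*, *PAX2*, *PAX9*, *PBX4* and *PITX3*, which fell, and *FOXD1*, *FOXO4* and *FOXP4*, which rose. No library enters the group means of both comparisons, but a single estimate of the spread over all 8 libraries serves both. The same overlap was not counted over all genes, so the shares of 84.2% and 59.3% have no background beside them. Among the falls, *FOXA1* and *PITX3* had a depleted mean without TGFβ below the lowest gene mean of the table. Pearson's r between both sets of log2 differences was 0.76 over the 110 members, 0.85 over the 76 members with a mean of at least 100, and 0.81 over all genes. Genes are not independent replicates, and these values describe the libraries.

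Several of these falls were of similar size with TGFβ. *HOXB13* had 598 and 482 normalized counts in siControl_TGFβ and 232 and 279 in siPHF13_TGFβ (log2 difference -1.07, SE 0.15, adjusted p = 4.4e-05, limma). *SOX8* had 110.0 and 147 against 66.9 and 40.4 (-1.27, SE 0.29, adjusted p = 0.00246). *PAX9* had 268 and 216 against 127 and 102 (-1.07, SE 0.20, adjusted p = 0.000583). In each of the 3 genes the depleted libraries lay below both control libraries at 41.8% to 47.4% of their mean.

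*SOX9* had 9444 and 7979 normalized counts in siControl_TGFβ and 6145 and 5186 in siPHF13_TGFβ, or 65% of the control mean (log2 difference -0.62, SE 0.09, adjusted p = 6.98e-05, limma). This difference lay close to the fold threshold and was -0.56 with GC content and transcript length corrected and -0.50 without siControl_TGFβ replicate 1 or siPHF13_TGFβ replicate 2. *PBX4* had 217 and 249 against 141 and 139 (-0.73, SE 0.18, adjusted p = 0.00432). *PITX3* had 124 and 89.5 against 58.3 and 35.6 (-1.19, SE 0.46, adjusted p = 0.0435), with no overlap, and lost the call without siControl replicate 2, siControl_TGFβ replicate 1 or 2, or siPHF13_TGFβ replicate 2 (-1.42 to -0.84).

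*DLX2* had 716 and 520.5 normalized counts in siControl_TGFβ and 198 and 159 in siPHF13_TGFβ, or 28.8% of the control mean (log2 difference -1.78, SE 0.20, adjusted p = 7.59e-06, limma). *FOXN3* had 395 and 301 against 167 and 115 (-1.30, SE 0.21, adjusted p = 0.000167). Both genes, raised by TGFβ in control cells, stood below untreated siControl cells in siPHF13_TGFβ, at 71.4% and 77.4% of the siControl mean. *FOXO1* had 312 and 294 against 149 and 103 (-1.28, SE 0.26, adjusted p = 0.00108), and *FOXO3* 5484 and 5767 against 3555 and 3483 (-0.68, adjusted p = 1.23e-06), which was -0.50 with GC content and transcript length corrected.

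T-box factors, regulators of mesoderm, had calls in both directions in this comparison. *TBX15*, a factor of skeletal and muscle development, had 52.8 and 68.9 normalized counts in siControl_TGFβ and 23.7 and 19.2 in siPHF13_TGFβ (log2 difference -1.45, SE 0.36, adjusted p = 0.00394, limma). *TBX6*, a factor of paraxial mesoderm, had 57.1 and 27.8 against 109 and 121 (1.50, SE 0.32, adjusted p = 0.00144). Without TGFβ the same 2 genes had log2 differences of -0.13 and 0.76 and were not called.

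The rises of the forkhead factors were also seen with TGFβ. *FOXD1* had 1474 and 1573 normalized counts in siControl_TGFβ and 2098 and 2612 in siPHF13_TGFβ (log2 difference 0.62, SE 0.10, adjusted p = 0.000147, limma), which was 0.50 with GC content and transcript length corrected. *FOXP4* had 809 and 643 against 1279 and 943 (0.61, SE 0.14, adjusted p = 0.0027), which was 0.44 without siControl_TGFβ replicate 2 and 0.39 without siPHF13_TGFβ replicate 1. *FOXO4* had 34.5 and 73 against 116 and 100.1 (1.08, SE 0.38, adjusted p = 0.0309). *PAX6*, a factor of eye and islet cells, had 19.4 and 26.7 against 38.9 and 50.0 (0.92, SE 0.35, adjusted p = 0.0389). Called genes are picked for a difference, so a lack of overlap between their groups adds no support. The groups of the 4 genes did not overlap, and *PAX6* had an adjusted p of 0.0682 with edgeR and 0.11 with DESeq2.

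Of the members called after depletion in TGFβ-treated cells and not in untreated cells, 9 fell. *FOXC1* (-0.61), *HOXC8* (-0.68), *MEIS3* (-0.70), *ONECUT2* (-0.79) and *FOXD3* (-1.65) were among them. *HOXC8*, a HOX factor of the thoracic region, had 1261 and 1035 against 778 and 653, and without TGFβ 923 and 886 against 644 and 674 (log2 difference -0.46, adjusted p = 0.00533). A call in 1 of the 2 depletion comparisons does not show that the differences differ, since the interaction was called for none of them.

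By role, 12 of 16 listed pancreatic epithelial factors were in the table, and *HNF4A*, *ONECUT1* and *PAX4* were among those that were not. After depletion 3 of the 12 fell without TGFβ (*SOX9*, *FOXA1* and *GATA6*), and 5 fell, with *SOX9*, *FOXA1*, *GATA6* and *ONECUT2* among them, and *PAX6* rose with it. These are 25% and 41.7% of the list, where 10.4% and 11.7% of all genes fell. Both shares count *FOXA1*, which entered the table through its control groups and had to differ, so they overstate the falls of the list. Their median log2 differences were -0.45 and -0.41 against 0.00 for all genes in both comparisons. *HNF4G* (0.28 and 0.09) and *FOXA3* (0.42 and 1.67) lay above 0 in both without being called.

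Of 5 forkhead factors known to bind SMAD proteins, *FOXO1* fell and *FOXO4* rose with depletion without TGFβ, and *FOXO1* and *FOXO3* fell and *FOXO4* rose with it. The falls are 20% and 40% of the list, where 10.4% and 11.7% of all genes fell. The rises are 20% in both, where 7.95% and 8.81% rose. *FOXL2* had 0.38 and 0.49 under the fold threshold, and *FOXH1* 0.10 and -0.07 at 16.2 to 31.3 normalized counts. TGFβ treatment itself gave no call among the 5 in siControl or siPHF13 cells. Of 22 factors linked to EMT, 17 were in the table: 3 rose with TGFβ in control cells (*SOX4*, *SOX9* and *FOXC2*), 2 fell with depletion without TGFβ (*SOX9* and *PAX2*) and 3 with it (*FOXC1* in addition). These are 17.6%, 11.8% and 17.6% of the list, where 3.27% of all genes rose with TGFβ and 10.4% and 11.7% fell with depletion. Other factors of that list, *FOXQ1*, *FOXF2*, *FOXM1*, *TBX2*, *TBX3*, *MSX1*, *MSX2*, *PAX8*, *HOXB7*, *HOXB9* and *GATA3*, passed both thresholds in none of the comparisons.

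Over all comparisons 34 of the 110 members were called at least once and 76 in none. The share of all genes called at least once was not counted, so these counts have no background beside them. Those never called comprised 19 of 30 FOX members (*FOXA2*, *FOXA3*, *FOXB1*, *FOXD2*, *FOXE1*, *FOXF2*, *FOXH1*, *FOXJ2*, *FOXJ3*, *FOXK1*, *FOXK2*, *FOXL1*, *FOXL2*, *FOXM1*, *FOXN2*, *FOXO6*, *FOXP1*, *FOXP3* and *FOXQ1*) and 22 of 27 HOX members, all but *HOXA2*, *HOXA3*, *HOXA13*, *HOXB13* and *HOXC8*. They also comprised *SOX6*, *SOX7*, *SOX12*, *SOX13*, *SOX15*, *SOX17*, *TBX1*, *TBX2*, *TBX3*, *TBX18*, *TBX19*, *GATA2*, *GATA3*, *GATA4* and *GATA5*. Among the rest were *DLX3*, *DLX4*, *DLX6*, *MSX1*, *MSX2*, *MEIS1*, *MEIS2*, *PBX2*, *PBX3*, *SIX4*, *SIX5*, *LHX1*, *LHX4*, *LHX6*, *PAX5*, *PAX8*, *PITX1*, *HNF4G* and *ONECUT3*. At 2 libraries per group, a member missing a call is not shown to be unaffected.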

How the data were processed

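The authors trimmed the reads with Trim Galore 0.4.1, aligned them to hg19 with STAR 2.7.0, counted them per gene with HTSeq 0.12.4 and normalized the counts with DESeq2, per the submitters' processing notes and the methods. The strand setting and annotation release are not given in the sources used here. The deposited signal is a normalized count per gene and library, a read count divided by a size factor. The deposited tables of the authors' own comparisons hold group means, log2 fold changes, standard errors and p-values and were not used.

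Tests were fitted across all 13307 genes with limma 3.58.1 (R 4.3.3) on log2(normalized count + 1), with a trended prior variance and 4 group means over the 8 libraries. Differences are on this scale, which understates changes of low genes. Benjamini-Hochberg adjusted p-values cover every gene in the table, and a call needed an adjusted p under 0.05 and a log2 difference over 0.58 in size, the thresholds of the study's methods. The minimum of 10 normalized counts in 2 libraries removed no gene. Statements that groups did not overlap describe members already called. The share of all genes without overlap was not counted. The procedure was tested on simulated data.

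In each of 7 libraries 100.0% of values were whole multiples of 1 read within 0.1 read. edgeR 4.0.16 and DESeq2 1.42.0 were run as alternatives on the recovered reads of these 7, since the worth of 1 read in siPHF13 replicate 1 was too near 1 for that column to be checked. The lone siPHF13 library was there assumed to vary like the other groups. edgeR called 17% of all genes for siPHF13 against siControl, 4.69% for siControl_TGFβ against siControl, 20.4% for siPHF13_TGFβ against siControl_TGFβ and 1.11% for siPHF13_TGFβ against siPHF13.

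Any called member could be named. Values in every library and full statistics were given by rule for the 5 largest rises and falls per comparison among called members with a mean of at least 30, for *SOX9* and for *PHF13*; values of other members that the text describes, such as *GATA6*, *FOXA1* and the HOX genes, were chosen once those values were known. The members and lists were chosen with earlier results of these data known. Gene positions and transcript lengths come from GENCODE v44lift37 (GRCh37), and promoters from RefSeq (GRCh38.p14). Some members are not reported here by name.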

Additional observations from a re-analysis of the deposited data

How the results depend on the processing

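Of 57 calls of a member in a comparison, 29 were kept under every alternative that gave a value and 0 changed direction. When 1 library was left out, 26 were lost in at least 1 fit. Leaving out libraries gave 5 to 9 rises and 0 to 2 falls with TGFβ in siControl cells (8 and 1 in the full fit), 2 to 4 rises and 11 to 17 falls with depletion without TGFβ (3 and 16), 3 to 5 rises and 14 to 24 falls with TGFβ (5 and 22), and 2 to 3 rises with TGFβ in siPHF13 cells (2). The library that cost the most calls was siControl_TGFβ replicate 1, with 17 lost. A minimum mean of 100 left 2 of 5 rises with depletion in TGFβ-treated cells and 1 of 2 rises with TGFβ in siPHF13 cells, since fewer genes were tested. edgeR and DESeq2 each called 10 falls with depletion without TGFβ in place of 16, in fits that lack siPHF13 replicate 1. With GC content and transcript length corrected, 3 members fell with TGFβ in siControl cells in place of 1 and 6 calls were lost, and the cause was not tested. Without a threshold on the fold, depletion gave 14 rises and 32 falls without TGFβ and 17 rises with it, and TGFβ gave 4 falls in siControl cells. Over all genes, samples with the same replicate number did not deviate together (correlations -0.09 to 0.05). This cannot show whether the libraries were prepared in pairs, which the labels do not say. Over the members, replicate 1 lay above replicate 2 for 76 of 110 in siControl_TGFβ and 80 in siPHF13_TGFβ. The replicate block lost 1 of the 57 calls, the fall of *PITX3* without TGFβ (-1.20, adjusted p = 0.0504, limma). Of the 110 members, 19 had a mean under 30 normalized counts and rest on few reads.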

Other observations

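Transcription factors of EMT and of the pancreas that the symbol rule leaves out were listed for comparison. *SNAI1*, a zinc finger repressor of E-cadherin, had 502 and 565 normalized counts in siControl, 155 and 181 in siPHF13, 1768 and 1267 in siControl_TGFβ, and 402 and 351 in siPHF13_TGFβ. It fell with depletion (log2 difference -1.66 without and -1.99 with TGFβ) and rose with TGFβ (1.49 and 1.16 in siControl and siPHF13 cells, adjusted p at most 0.000613, limma). *PRRX1*, a homeobox factor of mesenchyme, fell in both depletion comparisons (-1.71 and -1.82) at 6.48 to 50.5 normalized counts. *ZEB1* stayed under the fold threshold (-0.14 and -0.30). Of the 9 transcription factors of EMT outside the symbol rule that were in the table, 3 fell with depletion without TGFβ and 2 with it. These are 33.3% and 22.2% of the list, where 10.4% and 11.7% of all genes fell.

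Of 8 other pancreatic factors in the table, 4 (50%) fell in each depletion comparison, against the same 10.4% and 11.7% of all genes, and 1, *MNX1*, rose with TGFβ present (1.33), where 8.81% of all genes rose. *PDX1*, the homeobox factor of pancreas formation, had 96.7 and 156 normalized counts in siControl, 26.9 and 57.2 in siPHF13, 71.2 and 104 in siControl_TGFβ, and 39.9 and 22.1 in siPHF13_TGFβ (log2 differences -1.62 and -1.50, adjusted p = 0.00492 and 0.00737, limma). *NR5A2*, a nuclear receptor of acinar cells, fell by 1.18 and 1.32 on the log2 scale, and *HHEX*, a homeobox factor of the foregut, by 0.75 and 0.82. Among 6 homeobox factors of the TALE class outside the MEIS and PBX families, 3 (50%) fell in each depletion comparison, again against 10.4% and 11.7% of all genes.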
